A study of Mus musculus with 6 samples.

Results

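The centrosome and primary cilium genes described here were those named by the Cep, Ift, Bbs, Tctn and Nphp series, that is centrosomal proteins, intraflagellar transport proteins, Bardet-Biedl syndrome proteins, tectonics and nephrocystins. They were chosen by symbol, without use of their function, and comprised 58 of the 23473 RefSeq gene rows of the expression table (31 Cep, 13 Ift, 8 Bbs, 3 Tctn and 3 Nphp genes). Of these, 54 had a mean of at least 1 RPKM (reads scaled to the length of the gene model and to the library total) over all 6 libraries and were tested, namely 30 Cep, 13 Ift, 6 Bbs, 3 Tctn and 2 Nphp genes. RNA was sequenced from tumor endothelial cells (TECs) collected with CD31-coated beads from Lewis lung carcinoma (LLC) tumors, a transplanted mouse lung cancer, in C57BL/6 mice labelled as 8 weeks old. The Ctrl group had 3 libraries and the genotype wild type, and the NICeCA group had 3 libraries from mice with Cdh5 cre ERT2 and a Rosa26 flox-stop-flox Notch1 ICD allele, in which tamoxifen removes a stop cassette and releases the Notch1 intracellular domain. The Cre is driven by an endothelial cadherin promoter, so that other cells held on the beads would not carry the activated allele. According to the labels, tumors were dissected on different days and TECs were over 90% pure, whereas the study's methods name a common day of collection.

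The centrosome is the main microtubule-organizing center of an animal cell and consists of a pair of centrioles embedded in pericentriolar material. In resting cells the older centriole docks at the plasma membrane through its distal appendages and grows a primary cilium, and before division the cilium is resorbed and the centrioles serve the spindle poles. Cilia are built by intraflagellar transport (IFT). Its trains hold IFT-A and IFT-B complexes, move towards the tip with kinesin-2 and return with dynein-2. The BBSome carries membrane proteins, and the transition zone acts as a gate at the cilium base. Endothelial cells can bear primary cilia, which are known as sensors of blood flow.

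Many genes of cilium assembly are known targets of RFX transcription factors, which bind a DNA element called the X-box. Promoter windows from 250 bases before to 50 bases after the annotated start (RefSeq, build GRCm38.p6) were matched for 48 of the 58 genes, and a simplified X-box, read on both strands as GTNNCC, any 3 bases and GNAAC, was found in 10 of them (20.8%), compared with 2.49% of all 27025 genes with such windows. The motif was chosen with the expression values known, and a match is a description of these letters, not evidence of binding. The following 30-base stretches are shown, 1 or 2 for each family, because they carry the most frequent of the 3 motifs searched. Each is written 5′ to 3′ on the strand of its gene with the motif in capitals.
Bbs1, chr19:4906605-4906634, minus strand: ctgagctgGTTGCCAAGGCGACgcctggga
Bbs7, chr3:36613489-36613518, minus strand: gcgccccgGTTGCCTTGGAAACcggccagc
Tctn1, chr5:122264411-122264440, minus strand: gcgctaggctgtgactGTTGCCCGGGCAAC
Tctn2, chr5:124598679-124598708, plus strand: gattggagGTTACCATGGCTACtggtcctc
Cep19, chr16:32099803-32099832, plus strand: agccttctGTTGCCTTGGGAACgatcctcg
Cep112, chr11:108425174-108425203, plus strand: cccggagcGTCGCCATGGCAACagagttga
Ift57, chr16:49699199-49699228, plus strand: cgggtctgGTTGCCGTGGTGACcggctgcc
Nphp4, chr4:152477903-152477932, plus strand: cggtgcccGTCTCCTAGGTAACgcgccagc

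The other genes with the motif were Bbs4 and Cep44, and Cep112 held a second copy. By contrast, GTGGGAA, a core site of the Notch partner RBPJ, was found on either strand in 3 of the 48 genes (Cep89, Ift74 and Nphp4; 6.25%), close to its share of 7.25% among all genes. The E2F letters TTTGGCGC or TTTCCCGC were found in Cep128 and Ift27 (4.17%), compared with 1.80% of all genes. None of the E2F or RBPJ matches shared bases with an X-box match.

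The libraries held 39000759 to 39823498 reads over all rows in Ctrl and 35303191 to 37239310 in NICeCA. All 16 endothelial markers were detected, with summed levels of 271 to 693 RPKM in Ctrl and 588 to 768 RPKM in NICeCA, and 2 of the 16 were higher in NICeCA by limma (adjusted p under 0.05). All 16 had positive log2 fold changes, with a median of 0.66, and 5 had an unadjusted p under 0.05. In 3 of them all NICeCA libraries lay above all Ctrl libraries. However, markers of other cells were also present. The 11 macrophage markers in the table summed to 6526 to 9446 RPKM in Ctrl and 4469 to 8296 RPKM in NICeCA. Of these 11, 3 were higher and 0 lower by limma, while 7 had negative log2 fold changes (median -0.17). The 11 neutrophil markers summed to 127 to 288 RPKM in Ctrl and 642 to 1727 RPKM in NICeCA, where 8 of the 9 tested were higher. The fibroblast sum was 369 to 609 and 309 to 485 RPKM, respectively, with 3 of 9 markers lower and 2 higher, and the pericyte sum was 38.8 to 57.4 and 79.9 to 151 RPKM, with 3 of 9 higher. T and NK cell markers (48.8 to 71.0 and 39.7 to 61.3 RPKM, 0 of 9 called by limma, with 1 at an unadjusted p under 0.05) and epithelial markers (7.0 to 12.9 and 6.37 to 8.69 RPKM, 1 of 2 lower) were low. Of the 8 listed epithelial genes, Krt8, Krt19 and Esrp1 had means under 0.1 RPKM, whereas the 2 tested genes averaged 2.95 and 4.61 RPKM. The part of these cells in the results below was not tested, and in bulk samples fewer cells of a type and less RNA per cell cannot be told apart. Notch1, the gene whose intracellular domain is expressed from the allele, was measured at 14.3, 8.19 and 13.8 RPKM in Ctrl and 12.3, 13.6 and 12.6 RPKM in NICeCA (log2 fold change 0.11, SE 0.20, limma adjusted p = 0.71), so that its level did not separate the groups.

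In TECs with Notch activation, 11 of the 54 tested genes fell (20.4%) and 0 rose, at a Benjamini-Hochberg adjusted p under 0.05 over all 12320 tested rows (limma on log2(RPKM + 1)). At an unadjusted p under 0.05, 27 were lower and 0 higher, and limma voom on recovered read numbers called 16 lower and 0 higher. Voom called 10.9% of all tested rows lower. The 16 voom calls of the families included Cep112, Cep290 and Cep97, which passed the filter through Ctrl. The 11 genes called by limma included the centrosomal genes Cep250, Cep170b, Cep164, Cep128, Cep68 and Cep110, the transport genes Ift140 and Ift172, the BBSome chaperonin Bbs12 and the tectonic Tctn1. Among all tested rows, 7.68% were lower and 5.88% higher. The families were singled out with earlier results of these data known, so these shares are set side by side as a description only. The log2 fold changes of the 54 genes ranged from -0.99 to 0.26 with a median of -0.34, and 51 were negative, whereas the median of all tested rows was -0.05 with 6811 of 12320 negative. In 34 of the 54 genes all NICeCA libraries lay below all Ctrl libraries, in 1 gene (Ift20) all lay above, and in 19 the groups overlapped. The corresponding shares of all tested rows were 24.4% below and 16.5% above.

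The calls depended on single libraries, as did those over all rows. Without Ctrl replicate 2, NICeCA replicate 1 or NICeCA replicate 2, 0 of the 54 genes were called by limma (21, 16 and 15 were lower at an unadjusted p under 0.05), and without Ctrl replicate 1, Ctrl replicate 3 or NICeCA replicate 3, 2, 9 and 5 were called. Lower calls over all tested rows, 946 with all libraries, became 137, 14 and 1 in the former fits and 536, 748 and 832 in the latter. The median log2 fold change of the families stayed between -0.36 and -0.27 in these fits. Ctrl replicate 2 was the highest library for 38 of the 54 genes and also had the lowest endothelial marker sum (271 RPKM), while NICeCA replicate 2 was the lowest library for 26 genes and NICeCA replicate 1 for 19.

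**Figure D1:**
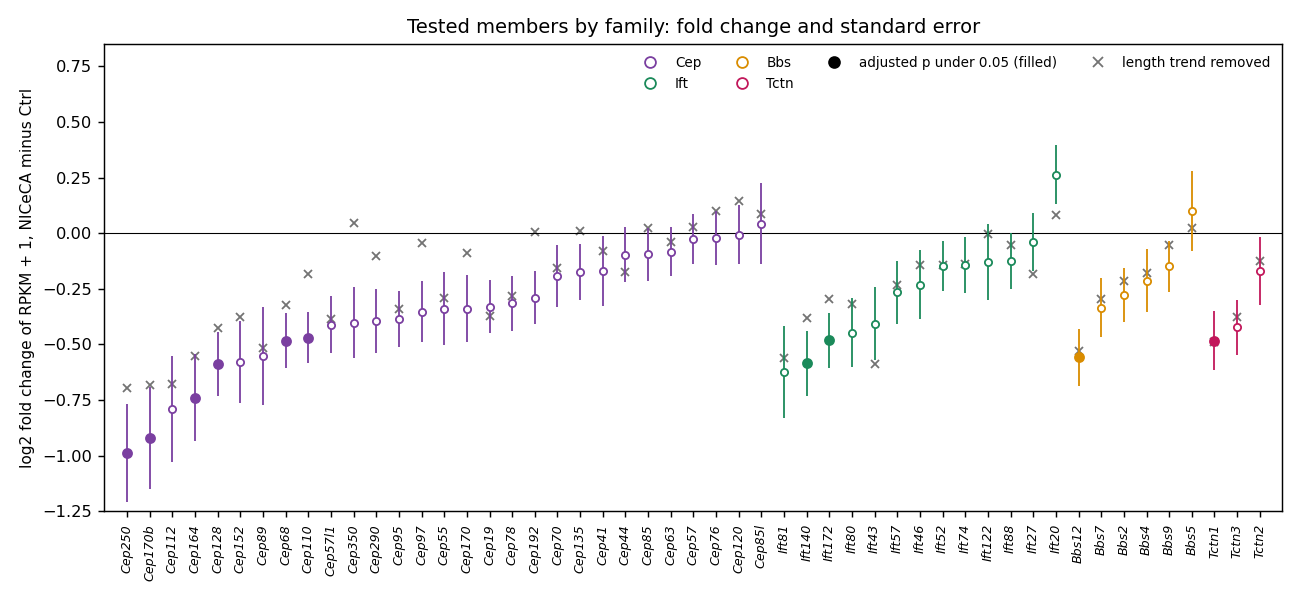
Log2 fold change of RPKM + 1 (NICeCA minus Ctrl, vertical axis) of 51 of the tested genes, ordered within their families along the horizontal axis. Points with bars are the limma estimate and its SE, filled points have an adjusted p under 0.05, and crosses give the value after removal of the length trend. Nearly all points lie below 0, the 10 filled ones between -0.99 and -0.47, and many crosses lie closer to 0 than their points.

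Among the Cep genes, 7 of 30 tested fell, 29 of 30 had a negative log2 fold change (median -0.35) and in 20 the groups did not overlap. Of all tested rows, 7.68% were called lower, 55.3% were negative and 24.4% had all NICeCA libraries below Ctrl. The tested Cep genes had a median model length of 3922.5 bases, compared with 2733 for all tested rows. The first to be considered were the 13 genes of centriole assembly, structure and cohesion, of which 2 fell, both of them parts of the fibrous linker that holds the pair of centrioles together. Cep250 (C-Nap1, chromosome 2, 155956558 to 155998900, plus strand, GRCm38) anchors this linker at the centriole ends. It was measured at 18.6, 22.8 and 13.5 RPKM in Ctrl and 7.33, 7.52 and 11.2 RPKM in NICeCA, so that the highest NICeCA library was below the lowest Ctrl library. Its mean fell from 18.3 ± 4.65 to 8.69 ± 2.19 RPKM (SD, n = 3 each), 47.5% of Ctrl, with a log2 fold change of -0.99 (SE 0.22, limma adjusted p = 0.035). Of its annotated exon bases, 11.1% are shared with 6430550D23Rik on the opposite strand, whose reads could not be separated.

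Cep68, another linker component (chromosome 11, 20227037 to 20249424, minus strand), was measured at 7.17, 7.97 and 7.89 RPKM in Ctrl and 4.74, 4.93 and 6.01 RPKM in NICeCA. The groups did not overlap, with means of 7.68 ± 0.44 and 5.23 ± 0.69 RPKM (SD, n = 3 each), and the log2 fold change was -0.48 (SE 0.12, limma adjusted p = 0.044). The remaining 11 genes of this class did not pass the threshold by limma, and voom called 1 of them (Cep57l1, adjusted p = 0.044). Cep152, which recruits the kinase Plk4 to start centriole duplication, was measured at 4.37, 5.46 and 3.14 RPKM in Ctrl and 2.22, 2.34 and 3.0 RPKM in NICeCA, with groups that did not overlap (log2 fold change -0.58, limma adjusted p = 0.070). In contrast, Cep57 (-0.03), Cep76 (-0.02), Cep63 (-0.08), which works with Cep152, and Cep120 (-0.01), which acts in centriole elongation, had log2 fold changes near 0, so the class was not shifted evenly. Its median log2 fold change was -0.17.

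Of the 7 Cep genes of the distal appendages and cilium initiation, 2 fell, beside 7.68% of all tested rows, and all 7 were negative (median -0.39). Cep164 (chromosome 9, 45766946 to 45828638, minus strand) is the distal appendage protein that recruits the kinase Ttbk2 to allow cilium growth. It was measured at 6.41, 7.54 and 4.37 RPKM in Ctrl and 2.79, 2.92 and 3.92 RPKM in NICeCA, and NICeCA replicate 3 came close to Ctrl replicate 3. The log2 fold change was -0.74 (SE 0.19, limma adjusted p = 0.046).

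Cep19, which helps to admit IFT trains to the cilium and whose promoter window holds an X-box match shown above, was measured at 4.94, 5.67 and 4.63 RPKM in Ctrl and 3.69, 3.86 and 3.92 RPKM in NICeCA. The groups did not overlap, but the test was not passed (log2 fold change -0.33, limma adjusted p = 0.092). Cep290, a transition zone protein mutated in several ciliopathies, was at the lower edge of the tested range with 1.32, 1.52 and 1.27 RPKM in Ctrl and 0.630, 0.885 and 0.916 RPKM in NICeCA (log2 fold change -0.39, limma adjusted p = 0.097), and was called by voom (adjusted p = 0.035). Cep290 passed the filter through Ctrl, its NICeCA mean being 0.81 RPKM. Cep41, the gene closest to the filter from above, averaged 1.06 RPKM with overlapping groups (log2 fold change -0.17, limma adjusted p = 0.46).

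The other 10 tested Cep genes included 3 that fell. Cep170b (chromosome 12, 112722174 to 112746591, plus strand), a paralog of the microtubule-binding protein Cep170, was measured at 3.39, 6.27 and 4.06 RPKM in Ctrl and 1.34, 1.83 and 2.61 RPKM in NICeCA. Both groups were spread widely without overlap, and the mean fell to 42.1% of Ctrl (log2 fold change -0.92, SE 0.23, limma adjusted p = 0.042). Cep128 (chromosome 12, 90998492 to 91384409, minus strand), a protein of the subdistal appendages that anchor microtubules, was measured at 2.89, 3.83 and 2.71 RPKM in Ctrl and 1.77, 1.6 and 1.86 RPKM in NICeCA. Its NICeCA values were tight and its log2 fold change was -0.59 (SE 0.14, limma adjusted p = 0.041). Cep110 (current symbol Cntrl, centriolin, chromosome 2, 35109492 to 35178822, plus strand), which sits at the older centriole and the midbody, was measured at 9.94, 9.60 and 9.36 RPKM in Ctrl and 6.71, 6.03 and 7.36 RPKM in NICeCA. It had the most even Ctrl libraries of the 11 called genes relative to its level, with an SD of 0.29 around a mean of 9.63 RPKM (log2 fold change -0.47, SE 0.12, limma adjusted p = 0.041).

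Cep170 itself, the family member with the highest mean (17.2 RPKM), was measured at 16.3, 19.0 and 22.9 RPKM in Ctrl and 13.9, 14.4 and 16.9 RPKM in NICeCA (log2 fold change -0.34, SE 0.15, limma adjusted p = 0.15). The groups of Cep170 overlapped, in contrast to those of its paralog Cep170b, but the difference between the paralogs was not tested. Cep112, a gene with 48 to 394 reads per library and 2 X-box matches, was measured at 1.54, 2.64 and 0.950 RPKM in Ctrl and 0.350, 0.483 and 0.737 RPKM in NICeCA (log2 fold change -0.79, limma adjusted p = 0.062), and passed the threshold with voom (adjusted p = 0.047). Cep112 passed the filter through Ctrl, its NICeCA mean being 0.52 RPKM. Cep55, which acts in the last step of cell division, had a log2 fold change of -0.34 (SE 0.16, limma adjusted p = 0.18). The positive end of the family was Cep85l, at 4.08, 3.35 and 5.70 RPKM in Ctrl and 3.92, 4.34 and 5.17 RPKM in NICeCA (log2 fold change 0.04, limma adjusted p = 0.88).

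**Figure D2:**
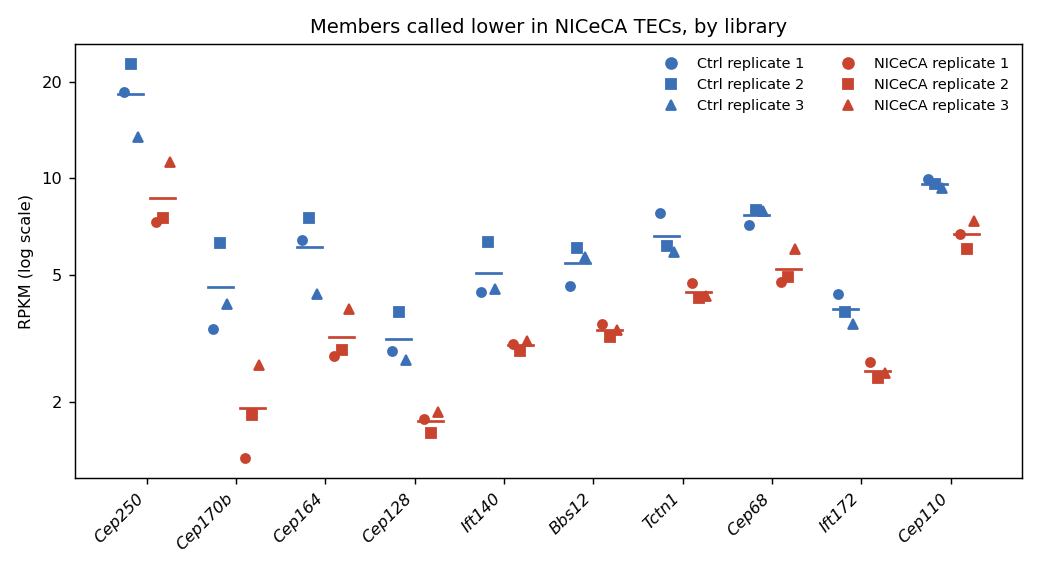
RPKM (vertical axis, log scale) of 10 called genes along the horizontal axis in each library. Marker shapes stand for replicates 1 to 3 of Ctrl and NICeCA, and short lines for group means. In all 10 every NICeCA library lies below every Ctrl library, with the widest spread in Cep250, Cep170b and Cep164 and the Ctrl libraries closest together in Cep110 and Cep68.

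Of the 13 Ift genes, 2 fell (15.4%, beside 7.68% of all tested rows), and 12 had a negative log2 fold change (median -0.23). The IFT-A complex was represented by Ift122, Ift140 and Ift43, with a median of -0.41. Ift140, a core IFT-A subunit (chromosome 17, 25016086 to 25099497, plus strand), was measured at 4.42, 6.31 and 4.52 RPKM in Ctrl and 3.04, 2.89 and 3.12 RPKM in NICeCA. The mean fell from 5.08 ± 1.06 to 3.02 ± 0.11 RPKM (SD, n = 3 each), with a log2 fold change of -0.59 (SE 0.15, limma adjusted p = 0.042). Ift43, a small IFT-A subunit, had 8.14, 10.8 and 7.73 RPKM in Ctrl and 6.98, 5.22 and 7.14 RPKM in NICeCA, without overlap but also without a call (log2 fold change -0.41, limma adjusted p = 0.12).

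The 10 IFT-B genes had a median of -0.19, and 1 of them fell. Ift172, a large peripheral IFT-B subunit (chromosome 5, 31253279 to 31291114, minus strand), was measured at 4.37, 3.83 and 3.52 RPKM in Ctrl and 2.68, 2.39 and 2.46 RPKM in NICeCA (log2 fold change -0.48, SE 0.12, limma adjusted p = 0.044). Ift81, which binds tubulin together with Ift74, had the most negative value of the family but differed more among libraries, with 1.86, 3.23 and 1.76 RPKM in Ctrl and 1.11, 0.797 and 1.40 RPKM in NICeCA (log2 fold change -0.62, SE 0.21, limma adjusted p = 0.076). Its partner Ift74 had a log2 fold change of -0.14. Ift20, an IFT-B subunit also found at the Golgi, was the most abundant Ift gene and the only one of the 54 genes with all NICeCA libraries above Ctrl, at 13.7, 14.1 and 13.7 RPKM in Ctrl and 19.8, 15.9 and 14.9 RPKM in NICeCA. The test was not passed (log2 fold change 0.26, SE 0.13, limma adjusted p = 0.20), and at 802 bases it also had the shortest gene model of the 54 genes.

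In the Bbs family, 1 of 6 tested genes fell, beside 7.68% of all tested rows. Bbs12 (chromosome 3, 37312554 to 37321451, plus strand), a chaperonin-like protein that helps to assemble the BBSome, was measured at 4.61, 6.06 and 5.69 RPKM in Ctrl and 3.52, 3.20 and 3.36 RPKM in NICeCA. The groups were well apart, with means of 5.45 ± 0.75 and 3.36 ± 0.16 RPKM (SD, n = 3 each) and a log2 fold change of -0.56 (SE 0.13, limma adjusted p = 0.037). The 5 tested subunits of the BBSome itself (Bbs2, Bbs4, Bbs5, Bbs7 and Bbs9) included 0 calls by limma, also with voom, and 1 at an unadjusted p under 0.05, with a median of -0.21. Bbs2, Bbs4, Bbs7 and Bbs9 had NICeCA libraries below all of Ctrl, for example 1.65, 2.03 and 1.69 RPKM against 1.23, 1.29 and 1.11 RPKM for Bbs7 (log2 fold change -0.33, limma adjusted p = 0.12). The share of all tested rows with all NICeCA libraries below Ctrl was 24.4%. Bbs5 was at 1.05, 0.849 and 1.21 RPKM in Ctrl and 0.850, 1.68 and 1.08 RPKM in NICeCA, with overlapping groups (log2 fold change 0.10, SE 0.18, limma adjusted p = 0.72).

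Tctn1 (chromosome 5, 122241515 to 122264460, minus strand), a protein of the transition zone, was measured at 7.77, 6.15 and 5.90 RPKM in Ctrl and 4.70, 4.24 and 4.30 RPKM in NICeCA. It fell by 0.48 on the log2 scale (SE 0.13, limma adjusted p = 0.049), the call closest to the threshold, and 19.0% of its annotated exon bases are shared with Hvcn1 on the opposite strand. Tctn3 had 3.20, 3.68 and 3.41 RPKM in Ctrl and 2.29, 2.08 and 2.55 RPKM in NICeCA, with groups that did not overlap (log2 fold change -0.42, limma adjusted p = 0.057). It was called by voom (adjusted p = 0.044), as was Tctn1 (adjusted p = 0.047). Tctn2 overlapped between the groups (log2 fold change -0.17, limma adjusted p = 0.46).

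Of the tested genes, 5 passed the filter through Ctrl with a NICeCA mean under 1 RPKM, Cep112, Cep290, Cep41 and Cep97 among them, and limma called 0 of these 5. However, voom called Cep112, Cep290 and Cep97 lower (adjusted p = 0.047, 0.035 and 0.038). Because the selection of such genes favored higher Ctrl values, these voom calls are given as a description. Of the 4 genes under the filter, Bbs10 and Cep72 were nearest to it, with means of 0.90 and 0.83 RPKM and overlapping groups. Bbs1, a BBSome subunit with 94 to 273 reads per library, had 1.11, 1.22 and 0.971 RPKM in Ctrl and 0.548, 0.476 and 0.456 RPKM in NICeCA, so that its groups were apart although it was not tested. Nphp4 was barely detected, at 0.105 to 0.209 RPKM.

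**Figure D3:**
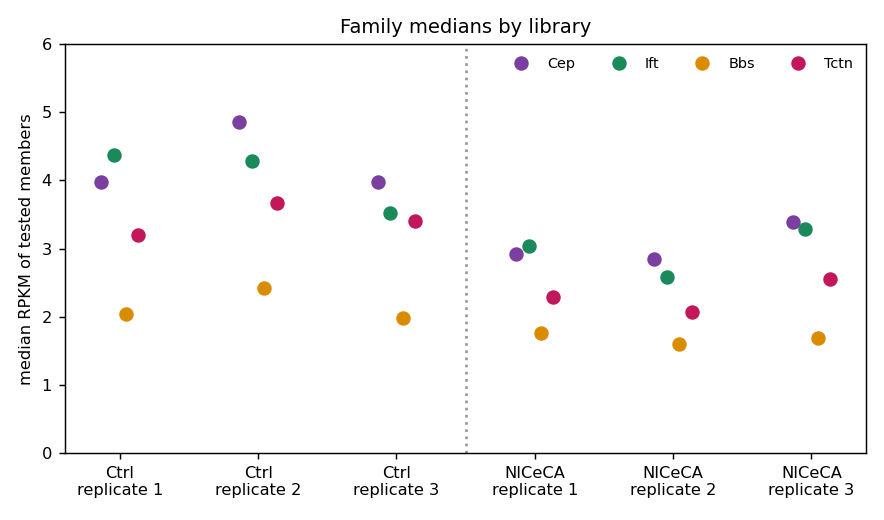
Median RPKM (vertical axis) of the tested genes of the Cep, Ift, Bbs and Tctn families in each of the 6 libraries (horizontal axis), with 1 point per family and library. All 4 medians are lower in every NICeCA library than in every Ctrl library. The same holds for the median of all tested rows with models of 4615 bases or more (not drawn).

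Taken by library, the median over the 54 genes was 3.40, 4.10 and 3.50 RPKM in Ctrl, compared with 2.62, 2.59 and 3.07 RPKM in NICeCA. For the Cep family the medians were 3.98, 4.85 and 3.97 RPKM against 2.92, 2.85 and 3.40 RPKM, and for the Ift family 4.37, 4.29 and 3.53 RPKM against 3.04, 2.59 and 3.29 RPKM. Over all tested rows the medians were 7.97, 8.34 and 8.75 RPKM in Ctrl and 7.76, 7.57 and 8.01 RPKM in NICeCA, with overlap. For tested rows of 4615 bases or more they were 7.15, 7.22 and 8.05 RPKM against 5.84, 6.01 and 6.40 RPKM, without overlap. For those of up to 1454 bases the NICeCA medians were the higher ones, at 13.0 to 13.7 against 11.7 to 12.3 RPKM. Lower medians in every NICeCA library were thus not particular to these families. NICeCA replicate 3 was the highest of its group for the Cep, Ift and Tctn families, and it also had the highest neutrophil marker sum (1727 RPKM) and the highest fibroblast sum of its group (485 RPKM).

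Gene model length moved with the result. Over all tested rows, the share called lower was 2.39%, 3.69%, 4.83%, 9.41% and 18.1% from the shortest to the longest of 5 equal classes of gene model length, and the median log2 fold change went from 0.13 in the shortest to -0.24 in the longest. Of the 11 genes, 8 had models in the longest class (4615 bases or more), which held 16 of the 54 genes. In the next class 1 of 10 genes was called, in the middle class 1 of 18 (Bbs12), in the following 1 of 5 (Tctn1) and in the shortest 0 of 5 by limma or voom, with 1 at an unadjusted p under 0.05 (Ift43). The medians of the genes in these classes, from short to long, were -0.04, -0.33, -0.30, -0.16 and -0.47, compared with 0.13, 0.01, -0.04, -0.12 and -0.24 for all rows. Pearson's r between log2 length and log2 fold change was -0.46 over the 54 genes and -0.21 over all 12320 rows, as a description across genes of the same libraries.

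**Figure D4:**
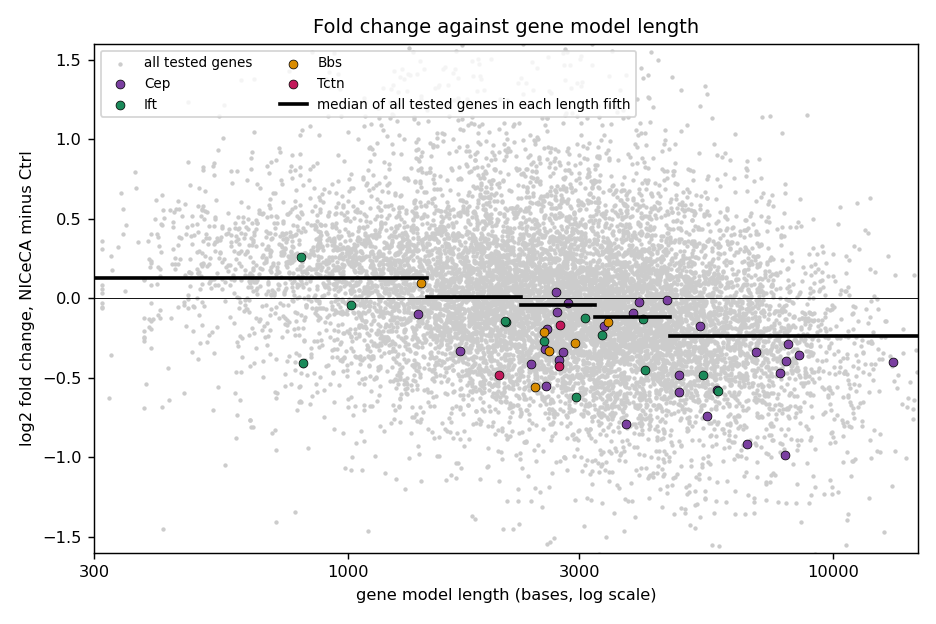
Log2 fold change of RPKM + 1 (NICeCA minus Ctrl, vertical axis) against gene model length in bases (horizontal axis, log scale). Grey points are tested rows, coloured points 51 of the 54 genes by family, and black bars the median of all tested rows in each of 5 length classes, and 440 rows, none of them from the families, lie outside the axes. The bars decline from 0.13 to -0.24 with length, and most coloured points lie below the bar of their class.

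When the trend on length was removed from each library, the median of the 54 genes was -0.18 with 44 negative, and 1 gene was still called, Bbs12 (log2 fold change -0.53, limma adjusted p = 0.044). The background share of lower calls in this fit was 1.67%. The values of the longest genes moved most. Cep110 (7792 bases) went from -0.47 to -0.19, Cep192, a scaffold of the pericentriolar material, from -0.29 to 0.01, Cep350 (13307 bases) from -0.40 to 0.05, and Cep290 from -0.39 to -0.10. Cep250 and Cep170b kept log2 fold changes of -0.70 and -0.68, with limma adjusted p of 0.099 and 0.10. At the other end, the shift of Ift20 went from 0.26 to 0.08, and that of Ift43 (809 bases) from -0.41 to -0.59 (adjusted p = 0.069). The GC content of the transcripts was likewise related to the values, with r = -0.45 over the 54 genes and -0.19 over 12175 rows. Removal of both trends, an alternative added after the data had been seen, gave a median of -0.28 with 50 of 54 negative and the same single call, Bbs12.

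The other genes of the pathway were taken from 3 lists that do not include the name families, although they too were drawn up with earlier results of these data known. Of 126 genes in the table, 120 were tested, of which 30 fell and 1 rose. The 120 genes had 101 negative values and a median log2 fold change of -0.36. Of all tested rows, 7.68% were called lower, 5.88% higher and 55.3% were negative. The 120 genes had a median model length of 3646 bases, compared with 2733 for all tested rows. Lower calls were more common in the longer length classes, as given above. After removal of the length trend, 5 of the 120 were called lower and 1 higher, with a median of -0.25. The share of all tested rows called lower in that fit was 1.67%. In the list of centriole duplication and pericentriolar material 14 of 51 fell, in that of transport and cilium motors 2 of 19 fell and 1 rose, and in that of the BBSome and transition zone 14 of 50 fell. By limma, 0 of these genes were called lower without NICeCA replicate 1 or NICeCA replicate 2 (43 and 45 at an unadjusted p under 0.05), 4 without Ctrl replicate 2 and 10 without Ctrl replicate 1. Over all tested rows, these fits called 14, 1, 137 and 536 lower.

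The called genes with the largest shifts included structural proteins of the centrosome and the cilium base. Fbf1, a distal appendage protein like Cep164, fell from 10.2 ± 3.27 to 4.29 ± 1.19 RPKM (SD, n = 3 each; log2 fold change -1.06, limma adjusted p = 0.034). Pkd1, which encodes the ciliary membrane protein polycystin-1, fell from 24.1 ± 4.08 to 11.5 ± 2.13 RPKM (log2 fold change -1.0, limma adjusted p = 0.021), and with a model of 14170 bases it moved to -0.53 once the length trend was removed (adjusted p = 0.083). Log2 fold changes of -1.08 for the transition zone gene Dzip1l, -1.06 for Evc2 of the cilium base, -1.05 for the centrosomal gene Ninl, -0.96 for Azi1 (Cep131), -0.91 for the spindle pole gene Aspm and -0.90 for Crocc, which encodes the rootlet protein rootletin, also passed the test. Subunits of the dynein-2 motor, which returns IFT trains from the tip, went in opposite directions. Wdr60, an intermediate chain, was at 4.34, 5.16 and 3.09 RPKM in Ctrl and 1.30, 1.20 and 2.16 RPKM in NICeCA (log2 fold change -1.02, limma adjusted p = 0.028). Tctex1d2, a light chain, was at 4.51, 5.81 and 6.34 RPKM in Ctrl and 9.73, 12.1 and 11.4 RPKM in NICeCA (log2 fold change 0.89, limma adjusted p = 0.020). Their models are 3725 and 631 bases long, and after removal of the length trend the values were -0.91 (adjusted p = 0.051) and 0.68 (adjusted p = 0.041).

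Among the RFX factors, 4 of 6 tested fell, beside 7.68% of all tested rows. By limma the count was 2 with the length trend removed, 1 without Ctrl replicate 2, 2 without Ctrl replicate 3 and 0 without NICeCA replicate 1 or NICeCA replicate 2 (4 each at an unadjusted p under 0.05). Lower calls over all rows were also fewer in these fits. Rfx2 was at 2.53, 2.26 and 1.91 RPKM in Ctrl and 0.556, 0.870 and 1.05 RPKM in NICeCA (log2 fold change -0.83, SE 0.16, limma adjusted p = 0.026), and Rfx1 at 6.74, 8.55 and 7.28 RPKM in Ctrl and 3.84, 3.61 and 4.29 RPKM in NICeCA (log2 fold change -0.79, SE 0.13, limma adjusted p = 0.019). Both were also called after removal of the length trend, with log2 fold changes of -0.74 (adjusted p = 0.047) and -0.66 (adjusted p = 0.033). Rfx5, a regulator of MHC class II genes, had a log2 fold change of -0.55 (limma adjusted p = 0.041) and Rfx7 of -0.69 (limma adjusted p = 0.043), and both calls were lost with the length trend removed (adjusted p of 0.088 and 0.14). With length and GC trends removed, Rfx1 was called (adjusted p = 0.046) and Rfx2 was not (adjusted p = 0.058). Rfx2 passed the filter through Ctrl, its NICeCA mean being 0.825 RPKM. Rfxank and Rfxap, the partners of Rfx5, were not called, with log2 fold changes of -0.24 and 0.19. Rfx3 averaged 1.23 RPKM in Ctrl and 0.746 RPKM in NICeCA, under the filter, and Rfx4, Rfx6 and Rfx8 had means under 0.1 RPKM. In the families, 8 tested genes with an X-box match had a median log2 fold change of -0.30 with 1 call (Tctn1). The 36 tested genes with a promoter window but no match had a median of -0.34 with 9 calls. With the length trend removed the medians were -0.27 with a match and -0.18 without, and with length and GC trends removed -0.37 and -0.25. The order of the 2 groups thus depended on the fit, and their difference was not tested.

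The 16 markers of proliferating cells, which bear on centrosome genes because centrosomes duplicate once per cell cycle, included 1 lower call (6.25%) and 15 negative values, with a median log2 fold change of -0.24. For all tested rows, 7.68% were called lower and 55.3% were negative, with a median of -0.05. The sum of the 16 markers was 219 to 319 RPKM in Ctrl and 239 to 262 RPKM in NICeCA, with overlapping groups, and its highest value was again in Ctrl replicate 2. Its part in the values of the families was not tested.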

How the data were processed

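Per the labels, RNA of CD31 bead-selected TECs from LLC tumors was sequenced in 3 Ctrl and 3 NICeCA libraries. The authors deposited RPKM values, 1 per row and library, for 56826 rows. The submitters' processing notes name TopHat2 and mm9, but 99.3% of RefSeq rows with a current symbol overlapped their gene in GRCm38, so positions are given in that build. For the counting program and its use of strand, nothing was stated in these notes or in the methods. RPKM times length came out as whole reads (within 0.05 of a read, for values under 1000 reads) for 100% of values. Of 23473 RefSeq rows, the 12320 with a mean of at least 1 RPKM were tested on log2(RPKM + 1) with limma 3.58.1 (trend) in R 4.3.3, two-sided, NICeCA against Ctrl, with Benjamini-Hochberg adjustment over these rows. The methods describe 3 pairs of mice without a paired test, and ribosomal RNA was depleted before sequencing. The procedure was tested on simulated data.

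The families, gene lists, markers and motifs were chosen with earlier results of these data known. Named were all called family genes, the most abundant and the extreme genes of each family, those nearest the filter, up to 10 called other pathway genes, RFX factors and Notch1, and further genes were named after their values were seen. Alternatives were a length trend removed (lowess, span 0.3), length and GC trends removed, other scalings, filters, a pseudocount of 0.1, no variance trend, voom, a replicate block and leaving out each library. A few family genes entered the counts and medians but are not reported here singly.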

Additional observations from a re-analysis of the deposited data

How the results depend on the processing

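The count of 11 family genes called lower fell to 1 with the length trend removed and to 1 with length and GC trends removed, to 3 of 14 tested when 5 RPKM was required, and to 0 without a filter, with quantile normalization or with the replicate block (26, 16 and 19 at an unadjusted p under 0.05). It ranged from 0 to 9 when a library was left out. It was 8 with trimmed mean scaling and 16 with voom. The median of -0.34 became -0.18 with the length trend removed, -0.20 with quantile normalization and -0.46 with voom, and ranged from -0.36 to -0.27 without a library. The 30 lower calls among other pathway genes became 5 with the length trend removed, 4 with length and GC trends removed, 11 when 5 RPKM was required, 0 without a filter, 8 with quantile normalization and 3 with the replicate block, and 0 to 24 without a library. Their 1 higher call became 0 with length and GC trends removed or no filter and 2 with trimmed mean scaling, and 0 to 2 without a library. The cause was not tested. Bbs5 turned to -0.14 and Cep85l to -0.070 with length and GC trends removed. Without a library, Bbs5 ranged from -0.050 to 0.22 (negative without NICeCA replicate 2), Cep85l from -0.10 to 0.21 (negative without Ctrl replicate 2 or NICeCA replicate 3) and Notch1 from -0.12 to 0.24 (negative without Ctrl replicate 2). Over all rows, 946 lower and 725 higher calls became 745 and 997 with trimmed mean scaling, 325 and 446 with quantile normalization, 206 and 590 with the length trend removed, and 1 and 26 without NICeCA replicate 2. With voom these calls were 1337 and 683, and without a library the lower calls ranged from 1 to 832. Deviations of same-numbered libraries from their group means correlated at 0.12, -0.34 and -0.18, and those of differently numbered libraries at -0.32 to 0.44. With 3 libraries per group, whose deviations sum to 0, these values cannot decide whether the numbers pair the samples. The replicate block left 209 lower and 327 higher calls over all rows. Depth limits genes near 1 RPKM such as Cep41, which had 95 to 198 reads per library.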

Other observations

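The hedgehog relay, which passes through the primary cilium in vertebrates, is in none of the lists above. Of its 8 tested genes, 3 fell, and all 8 had negative log2 fold changes, with a median of -0.73, beside 7.68% of all tested rows called lower and a median of -0.05. By limma the count was 1 with the length trend removed, 2 without Ctrl replicate 1 or Ctrl replicate 3, 5 without NICeCA replicate 3 and 0 without Ctrl replicate 2, NICeCA replicate 1 or NICeCA replicate 2 (7, 4 and 6 at an unadjusted p under 0.05). Lower calls over all rows were fewer in each of these fits than with all libraries and no trend removed. Gli3, a transcription factor that is processed to a repressor at the cilium, was at 3.20, 6.8 and 4.53 RPKM in Ctrl and 1.04, 1.37 and 2.30 RPKM in NICeCA (log2 fold change -1.17, SE 0.26, limma adjusted p = 0.035), and was not called with the length trend removed (adjusted p = 0.075). Sufu, which restrains the Gli factors, was at 5.07, 6.71 and 4.71 RPKM in Ctrl and 2.92, 2.59 and 3.18 RPKM in NICeCA (log2 fold change -0.73, SE 0.15, limma adjusted p = 0.030), and was also called with the length trend removed (log2 fold change -0.70, adjusted p = 0.042). Gpr161, a ciliary receptor that dampens the relay, had a log2 fold change of -0.80 (limma adjusted p = 0.043; 0.056 with the length trend removed), and passed the filter through Ctrl, its NICeCA mean being 0.878 RPKM. The receptor genes did not pass the test, with log2 fold changes of -0.85 for Smo (adjusted p = 0.075) and -0.50 for Ptch1 (adjusted p = 0.072). The target Gli1 was under the filter and nearly equal between the groups, at 0.762 ± 0.015 RPKM in Ctrl and 0.758 ± 0.130 RPKM in NICeCA (SD, n = 3 each).

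Genes of motile cilia were largely undetected. Of 20 in the list, 17 were in the table and 2 passed the filter, Tubb4b and Ccno. Foxj1, the main regulator of motile ciliogenesis, was at 0.030 to 0.176 RPKM. Tubb4b, a beta-tubulin also used outside cilia, was at 64.4, 71.2 and 69.3 RPKM in Ctrl and 95.6, 85.8 and 91.0 RPKM in NICeCA, above all of Ctrl (log2 fold change 0.41, limma adjusted p = 0.056). Ccno, a cyclin-like gene needed for centriole amplification in multiciliated cells, was at 0.464, 0.254 and 0.478 RPKM in Ctrl and 3.08, 2.08 and 2.98 RPKM in NICeCA. It passed the filter only through the NICeCA libraries, so that a difference was built into its selection, and its values are given as a description. Its log2 fold change was 1.40, and 1.38 with the length trend removed.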
